A study of Mus musculus with 6 samples.

Results

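The genes described here are 52 genes of DNA replication and mitosis, 24 of which act in S phase and 28 in G2 and mitosis (G2/M). They were listed by symbol for their known roles and not by a threshold on measured values, although earlier results of these data were known when the list was made, and they were found on the array through the gene symbols of its probes. A probe with the symbol of a single listed gene was found for 48 of the 52, and 46 were bright enough to be tested (19 S phase and 27 G2/M genes), out of 13266 genes and 21688 gene probes tested in all. The samples were posterior tissue, taken just behind the forelimb bud, of mouse embryos at embryonic day 9.5 from crosses between Fkbp8 heterozygotes. Mutant embryos, labelled Fkbp8 mutant without the allele being named, gave 3 samples (a, b and c), and wildtype embryos gave 3 (d, e and f). Each was hybridised to its own 1-colour CodeLink Mouse Whole Genome array, on which a biotin-labelled target binds to probes on the slide and the brightness of each spot is read. Fkbp8 encodes an immunophilin-like protein of the mitochondrial outer membrane, known in mouse embryos for its effect on dorsoventral patterning of the neural tube. No source used here says whether the samples labelled as one embryo came from separate litters, and the source label of mutant a speaks of embryos in the plural, so the p-values below reflect only how far these 6 samples spread.

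In the posterior tissue of Fkbp8 mutants the replication and mitosis genes were close to their wildtype levels. Of the 46 tested genes, 31 (67.4%) had a fitted difference of less than 1.1-fold in either direction, and 42 (91.3%) had a 95% interval that lay within 1.5-fold on both sides. The median size of the log2 fold change, in either direction, was 0.093 for these genes and 0.092 for all probes tested. They were thus about as close to wildtype as the array as a whole. The fitted difference exceeded 1.5-fold for Bub1, a spindle checkpoint kinase, and Kif23, a kinesin of the central spindle, both lower in mutants. These 2 are 4.35% of the 46, a larger share than the 235 of 21688 probes and the 165 of 13266 genes tested in all. None of the 46 passed an adjusted p of 0.05 in limma (0 of 46, smallest adjusted p = 0.173, for Aurkb), against 26 of 21688 probes on the whole array (0.12%). At an unadjusted p under 0.05, 3 genes were higher in mutants (Ttk, Top2a and Mcm4) and 6 were lower (Aurkb, Cdc25c, Mcm6, Bub1, Ccna2 and Kif23). These are 6.52% and 13% of the tested genes, beside 6.43% higher and 5.81% lower among all probes tested. Over the 13266 tested genes, with 1 probe a gene, the shares were 7.35% higher and 6.16% lower. The 46 genes were also bright, with 44 above the median level of all tested probes. Non-overlap of the 3 mutant and the 3 wildtype values occurred for 2 genes that were higher in mutants (4.35%, against 11.2% of all probes) and for 5 that were lower (10.9%, against 8.56%). The share of higher genes was near the background by the first measure and below it by the second, and the share of lower genes was above it by both, with counts of 6 and 5. This tilt was not the same under every scaling of the arrays. With cyclic loess in place of quantile normalisation, 2 genes were higher and 6 lower at an unadjusted p under 0.05 in limma (12.1% of all probes in either direction). Non-overlap with cyclic loess occurred for 2 higher and 5 lower genes (19.6% of all probes in either direction). With median centring in place of quantile normalisation, 4 genes were higher and 5 lower at an unadjusted p under 0.05 (8.48% of all probes in either direction). Non-overlap then occurred for 5 higher and 4 lower genes (14.8% of all probes in either direction).

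A dividing cell copies its DNA once and then separates the copies. Before S phase the origin recognition complex, with Cdc6 and Cdt1, loads a ring of Mcm subunits onto DNA, and cyclin E with its kinase and the GINS proteins help turn that ring into the moving helicase behind which the polymerases work. Cyclin A and cyclin B with Cdk1 then drive entry into mitosis, the Aurora and Polo kinases build the spindle, the checkpoint proteins hold the chromosomes until all are attached, and the anaphase-promoting complex, with Cdc20 and Ube2c, ends mitosis. Transcripts of many genes of both classes follow this order, with E2F factors acting on the promoters of S phase genes and the DREAM, B-Myb and FoxM1 complexes on those of G2/M genes. In embryos at this stage most cells of the posterior neural tube, somites and tail bud divide rapidly, so that transcripts of both classes are abundant in the tissue.

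The promoters of the 2 classes carry different short motifs, and 4 promoters are shown because their genes are among those that differed at an unadjusted p under 0.05 and because they differ in the motifs they hold. Each is the stretch from 150 bases before to 30 bases after the transcription start in RefSeq's annotation of GRCm38.p6, written 5′ to 3′ on the strand of the gene. Capitals mark the CCAAT box (CCAAT, or ATTGG on the opposite strand), the cell cycle homology region (TTTGAA, or TTCAAA on the opposite strand) and the E2F motif (TTTGGCGC, TTTCCCGC, TTTCGCGC or TTCCCGCC on either strand).
Mcm6 (chr1:128359676-128359855, minus strand): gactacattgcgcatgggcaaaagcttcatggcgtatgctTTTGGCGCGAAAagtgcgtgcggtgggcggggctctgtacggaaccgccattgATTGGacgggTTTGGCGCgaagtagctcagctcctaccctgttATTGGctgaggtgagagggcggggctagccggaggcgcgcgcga
Bub1 (chr2:127831830-127832009, minus strand): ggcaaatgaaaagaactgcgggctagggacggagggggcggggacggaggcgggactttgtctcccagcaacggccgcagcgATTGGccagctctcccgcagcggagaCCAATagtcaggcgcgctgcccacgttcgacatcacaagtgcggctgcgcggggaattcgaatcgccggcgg
Top2a (chr11:99024160-99024339, minus strand): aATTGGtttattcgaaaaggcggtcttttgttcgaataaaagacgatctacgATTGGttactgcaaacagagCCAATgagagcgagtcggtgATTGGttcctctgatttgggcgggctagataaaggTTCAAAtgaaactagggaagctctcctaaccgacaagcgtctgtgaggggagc
Ttk (chr9:83834539-83834718, plus strand): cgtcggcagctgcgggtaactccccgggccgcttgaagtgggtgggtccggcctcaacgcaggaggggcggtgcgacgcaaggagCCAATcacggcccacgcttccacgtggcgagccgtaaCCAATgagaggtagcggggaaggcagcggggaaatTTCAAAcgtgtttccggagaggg
The first E2F match of Mcm6 is a pair of overlapping motifs (TTTGGCGC, and TTTCGCGC read on the opposite strand). The Bub1 stretch held CCAAT boxes but neither of the other motifs in the exact spellings searched. Those of Top2a and Ttk held CCAAT boxes and, close to the start, a cell cycle homology region.

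Over the wider window from 250 bases before to 50 bases after the start, 19 of the 24 S phase genes and 23 of the 28 G2/M genes had an entry in the RefSeq promoter table. The cell cycle homology region was matched in 15 of 23 G2/M windows (65.2%) and 1 of 19 S phase windows (5.26%, Mcm2), against 2886 of the windows of 17492 protein-coding genes (16.5%). All 15 of those G2/M windows also held a CCAAT box, a combination present in 6.68% of all protein-coding genes. The CCAAT box by itself was matched in 20 G2/M windows (87%), in 12 S phase windows (63.2%) and in 39% of all genes. E2F motifs were matched in 9 S phase windows (47.4%) and in 1 G2/M window (4.35%, that of Cdk1), against 4.61% of all genes. A match says only that these letters lie in the window. Among tested G2/M genes the median log2 fold change (mutant minus wildtype) was -0.03 for the 15 with a match to the cell cycle homology region. It was 0.02 for the 7 without a match in that exact spelling. Among tested S phase genes the median was -0.06 for the 7 with an E2F match and -0.01 for the 8 without. The motif classes thus had medians within 0.06 of 0, a description to which no test was applied. They leave out tested genes without an entry, among them Aurkb (-0.40), Cdc25c (-0.46), Ccna2 (-0.24) and Mcm4 (0.21), which differed at an unadjusted p under 0.05.

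**Figure D1:**
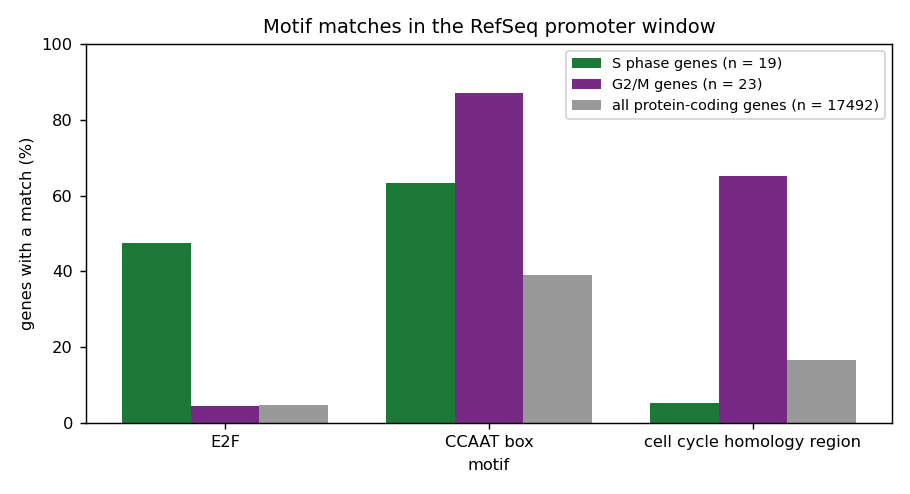
Percent of genes (vertical axis, from 0 to 100) whose RefSeq promoter window holds a match to each motif, for S phase genes (green), G2/M genes (purple) and all protein-coding genes (grey). E2F motifs were found in 47.4% of S phase and 4.35% of G2/M windows, and the cell cycle homology region in 5.26% of S phase and 65.2% of G2/M windows.

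The Fkbp8 probe followed the labels, with log2 intensities of 6.28, 6.30 and 6.11 in mutants a, b and c, against 10.57, 10.74 and 10.67 in wildtypes d, e and f (adjusted p = 1.18e-07 in limma). It stood above background in none of the mutants (0 of 3) and in all of the wildtypes (3 of 3). Between 57.6% and 61.6% of gene probes were above background on mutant arrays and between 61.3% and 61.8% on wildtype arrays, with the lowest share in mutant c. Arrays correlated at 0.983 to 0.988 among mutants, 0.992 to 0.993 among wildtypes and 0.984 to 0.989 between the groups. Transcripts of the Y chromosome (Eif2s3y, Ddx3y, Uty) were detected in the 3 mutants and no wildtype, and Xist, the RNA of the inactive X chromosome, in the 3 wildtypes and no mutant. Genotype and sex therefore cannot be told apart in any comparison below. Of the 46 tested genes Pola1 is the only one on the X chromosome, and Mcm5, Cdt1, Gins2 and Orc6 lie on chromosome 8 with Fkbp8. In bulk tissue such as this, fewer cells in a phase and less RNA per cell cannot be told apart.

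Among S phase genes the clearest difference was in Mcm6, a subunit of the Mcm helicase. Its log2 intensity was 11.29, 11.25 and 11.16 in mutants a, b and c, against 11.65, 11.62 and 11.51 in wildtypes d, e and f. All 3 mutants lay below all 3 wildtypes, and the spread within each group was small (SD 0.06 in mutants and 0.08 in wildtypes). The log2 fold change was -0.36 (SE 0.08), a 1.28-fold lower level in mutants (unadjusted p = 0.00143, adjusted p = 0.189). Mcm4, another subunit of the same ring, lay on the other side of 0. It had log2 intensities of 12.65, 12.67 and 12.44 in the mutants and 12.48, 12.37 and 12.27 in the wildtypes. Mutants a and b lay above every wildtype while mutant c fell among them, and the log2 fold change was 0.21 (SE 0.09, unadjusted p = 0.0486, adjusted p = 0.405). The remaining subunits had log2 fold changes of -0.15 for Mcm3 (SE 0.10), -0.10 for Mcm2 (SE 0.10) and 0.02 for Mcm5 (SE 0.08). The low mean of Mcm3 came with 1 low array, mutant a at 11.75, where mutants b and c stood at 12.10 and 12.07 and the wildtypes between 12.08 and 12.18. No probe carried the symbol Mcm7. Thus the measured members of the helicase ring did not share a direction.

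The genes that load and start the helicase were close to wildtype. Origin recognition subunits gave log2 fold changes of 0.13 (SE 0.10) for Orc6 and -0.05 (SE 0.09) for Orc1. Of the loading factors, Cdc6 was at -0.06 (SE 0.09) and Cdt1 at 0.02 (SE 0.08), and the GINS subunit Gins2 was at 0.04 (SE 0.09). Their adjusted p-values lay between 0.624 and 0.956, and each 95% interval stayed within 1.5-fold of no difference. Cyclin E, which with Cdk2 triggers origin firing, was measured through Ccne1 (0.09, SE 0.10) and Ccne2 (0.06, SE 0.13). E2f1, a transcription factor for the S phase programme, was at -0.05 (SE 0.10).

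Genes of DNA synthesis included the brightest S phase probes, although brightness also depends on the probe and gives no ranking of transcript amounts. Pcna, the sliding clamp of the polymerases, had log2 intensities of 12.85, 12.56 and 12.56 in mutants, against 12.60, 12.75 and 12.77 in wildtypes. Mutant a was the highest of the 6 arrays and mutants b and c the lowest, so the groups overlapped, and the difference was -0.05 on the log2 scale (SE 0.10, adjusted p = 0.869). Rrm2, the regulated subunit of ribonucleotide reductase, which makes deoxyribonucleotides, had 12.78, 12.64 and 12.93 in mutants and 12.67, 12.81 and 12.69 in wildtypes. Here too the mutants held both the lowest and the highest value, and the difference was 0.07 on the log2 scale (SE 0.09, adjusted p = 0.81). The catalytic subunits of the replicative polymerases were at -0.08 (Pola1, SE 0.09) and -0.06 (Pole, SE 0.10). Chaf1b, of the chromatin assembly factor that places histones behind the fork, was at -0.09 (SE 0.10), and Ung, which removes uracil from DNA, at 0.03 (SE 0.08). Ung values in mutants lay between 9.887 and 9.893, within the wildtype range of 9.74 to 9.97. Rrm1, the partner of Rrm2, exceeded background in 0 of 3 mutants and 1 of 3 wildtypes and was not tested, and Gins1, Tyms and Slbp had no probe with their symbol.

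**Figure D2:**
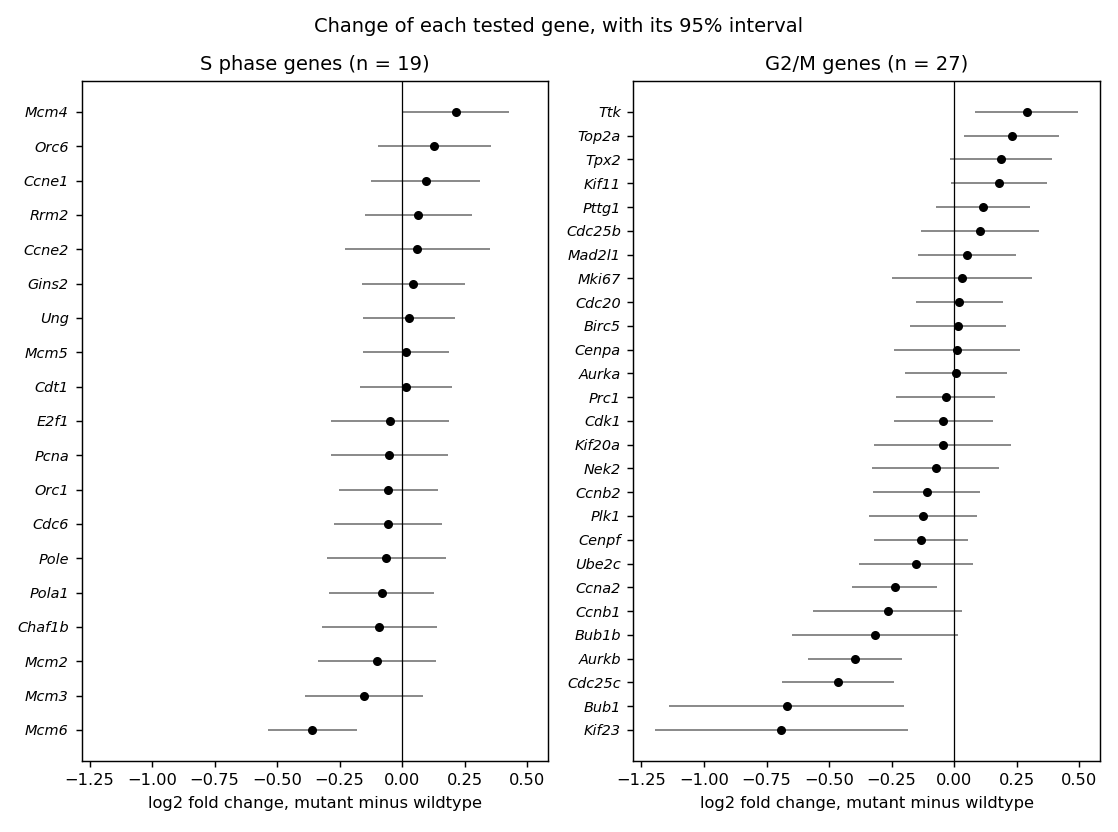
Log2 fold change (horizontal axis, mutant minus wildtype) of each tested gene with its 95% interval from limma, for 19 S phase genes (left) and 27 G2/M genes (right), ordered by size. Points left of the line at 0 are lower in mutants, and the widest intervals are those of Bub1 (-1.14 to -0.20) and Kif23 (-1.20 to -0.19).

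In the G2/M class the cyclins and the phosphatases that switch on Cdk1 had negative log2 fold changes in 4 of 5 cases. Negative values were also found for 15 of the 27 G2/M genes and 10322 of 21688 probes, and this count was not tested. Ccna2, cyclin A2, had log2 intensities of 12.44, 12.38 and 12.52 in mutants, against 12.65, 12.71 and 12.69 in wildtypes. The groups did not overlap, and the log2 fold change was -0.24 (SE 0.07, unadjusted p = 0.0117, adjusted p = 0.289). Cdc25c, a phosphatase that activates Cdk1 at mitotic entry, had 8.95, 8.76 and 8.91 in mutants and 9.45, 9.40 and 9.17 in wildtypes. Every mutant value lay below every wildtype value, with a log2 fold change of -0.46 (SE 0.10, unadjusted p = 0.00125, adjusted p = 0.182). Its relative Cdc25b was at 0.10 (SE 0.10), in the other direction. Ccnb1 and Ccnb2, the B-type cyclins of mitosis, were at -0.27 (SE 0.13) and -0.11 (SE 0.09), and their kinase Cdk1 at -0.04 (SE 0.09). Ccnb1 values spanned 11.27 in mutant b to 11.75 in mutant a, beside 11.62 to 11.91 in wildtypes, so that mutant a lay inside the wildtype range.

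Of the mitotic kinases outside the checkpoint, Aurkb had the smallest p of all 46 genes. Aurkb is the kinase of the chromosomal passenger complex, which corrects the attachment of chromosomes to the spindle. Its log2 intensity was 9.44, 9.63 and 9.49 in mutants, against 9.99, 9.90 and 9.86 in wildtypes. The highest mutant, b, lay below the lowest wildtype, f, and the log2 fold change was -0.40 (SE 0.08), 1.32-fold lower in mutants (unadjusted p = 0.00107, adjusted p = 0.173). Birc5, or survivin, a partner of Aurkb in that complex, had 12.89, 13.07 and 12.88 in mutants and 13.01, 12.90 and 12.88 in wildtypes. The groups overlapped, with mutant b highest of the 6 arrays (log2 fold change 0.02, SE 0.08, adjusted p = 0.952). Aurka, the Aurora kinase of centrosomes and spindle poles, was at 0.01 (SE 0.09) on its brightest probe and at 0.36 (SE 0.15, unadjusted p = 0.0365) on a dimmer second probe, so that its probes did not give the same size of difference. Tpx2, which brings Aurka to the spindle, was at 0.19 (SE 0.09). Plk1, the Polo kinase, was at -0.12 (SE 0.09), and Nek2, a kinase of centrosome separation, at -0.07 (SE 0.11).

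Spindle checkpoint genes went both ways. Bub1, a kinase that recruits the checkpoint to kinetochores, had log2 intensities of 7.92, 6.97 and 7.44 in mutants, against 8.26, 8.08 and 7.99 in wildtypes. All mutants were below all wildtypes, but they differed among themselves by more than any wildtype pair, with mutant b lowest. The log2 fold change was -0.67 (SE 0.21, unadjusted p = 0.0107, adjusted p = 0.285). It was -0.43 (adjusted p = 0.402) without mutant b and -0.90 (adjusted p = 0.107) without mutant a. A second, dimmer Bub1 probe gave -0.11 (SE 0.10). Ttk, the kinase also called Mps1 that starts the checkpoint, was on the opposite side, at 9.61, 9.63 and 9.47 in mutants, against 9.40, 9.29 and 9.15 in wildtypes. Again the groups did not overlap, and the log2 fold change was 0.29 (SE 0.09, unadjusted p = 0.0112, adjusted p = 0.288). Bub1b, which encodes BubR1, was at -0.32 (SE 0.15), with 9.61, 9.34 and 9.99 in mutants and 9.96, 9.99 and 9.94 in wildtypes. Mutant c reached the wildtype level there and mutant b was lowest. Mad2l1, the checkpoint inhibitor of Cdc20, was at 0.05 (SE 0.09).

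**Figure D3:**
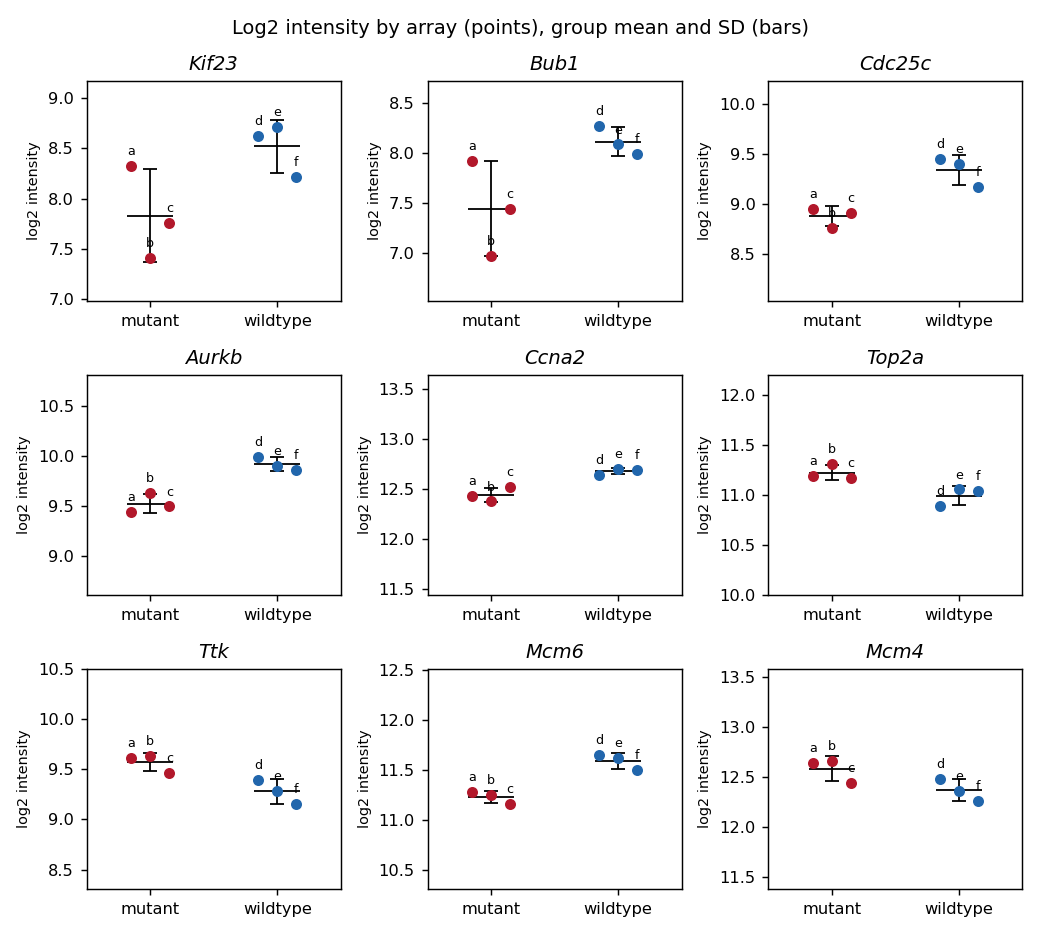
Log2 intensity (vertical axis, the same span of log2 units in each panel) on each array, as points lettered by replicate, for the 9 genes with an unadjusted p under 0.05, mutants in red on the left and wildtypes in blue on the right. Long bars are group means and short bars 1 SD either way (n = 3 each), and mutant b is the lowest point for Bub1 and Kif23.

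Motors and kinetochore proteins were close to wildtype apart from Kif23. Kif23, the kinesin of the central spindle that directs cytokinesis, had log2 intensities of 8.33, 7.40 and 7.76 in mutants, against 8.63, 8.71 and 8.22 in wildtypes. Mutant a stood above wildtype f, so the groups overlapped, and mutant b was lowest. The log2 fold change was -0.69 (SE 0.22, unadjusted p = 0.0131, adjusted p = 0.299). It was -0.47 (adjusted p = 0.45) without mutant b and -0.93 (adjusted p = 0.117) without mutant a. Prc1, which bundles the microtubules on which Kif23 works, was at -0.03 (SE 0.09), and Kif20a, another kinesin of the central spindle, at -0.05 (SE 0.12). Kif11, the motor that pushes the spindle poles apart, was at 0.18 (SE 0.09), with a second probe at 0.08 (SE 0.13). Cenpa, the histone variant of centromeres, was at 0.01 (SE 0.11) and the kinetochore protein Cenpf at -0.13 (SE 0.08). Cenpe, a kinetochore motor, was above background on no array and was not tested.

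Top2a, the topoisomerase that untangles sister chromatids, had log2 intensities of 11.19, 11.31 and 11.17 in mutants, against 10.89, 11.06 and 11.04 in wildtypes. Its groups did not overlap (log2 fold change 0.23, SE 0.08, unadjusted p = 0.0222, adjusted p = 0.333). Ube2c, which passes ubiquitin to targets of the anaphase-promoting complex, was the brightest G2/M probe, at 13.22, 13.46 and 13.36 in mutants and 13.39, 13.66 and 13.44 in wildtypes. Here the groups overlapped, and the difference was -0.15 on the log2 scale (SE 0.10, adjusted p = 0.571). Cdc20, which activates that complex, was at 0.02 (SE 0.08), and Pttg1, the securin it destroys, at 0.12 (SE 0.08). Mki67, the proliferation marker Ki-67, was at 0.03 (SE 0.12), with 12.66, 12.83 and 12.39 in mutants and 12.59, 12.74 and 12.46 in wildtypes.

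**Figure D4:**
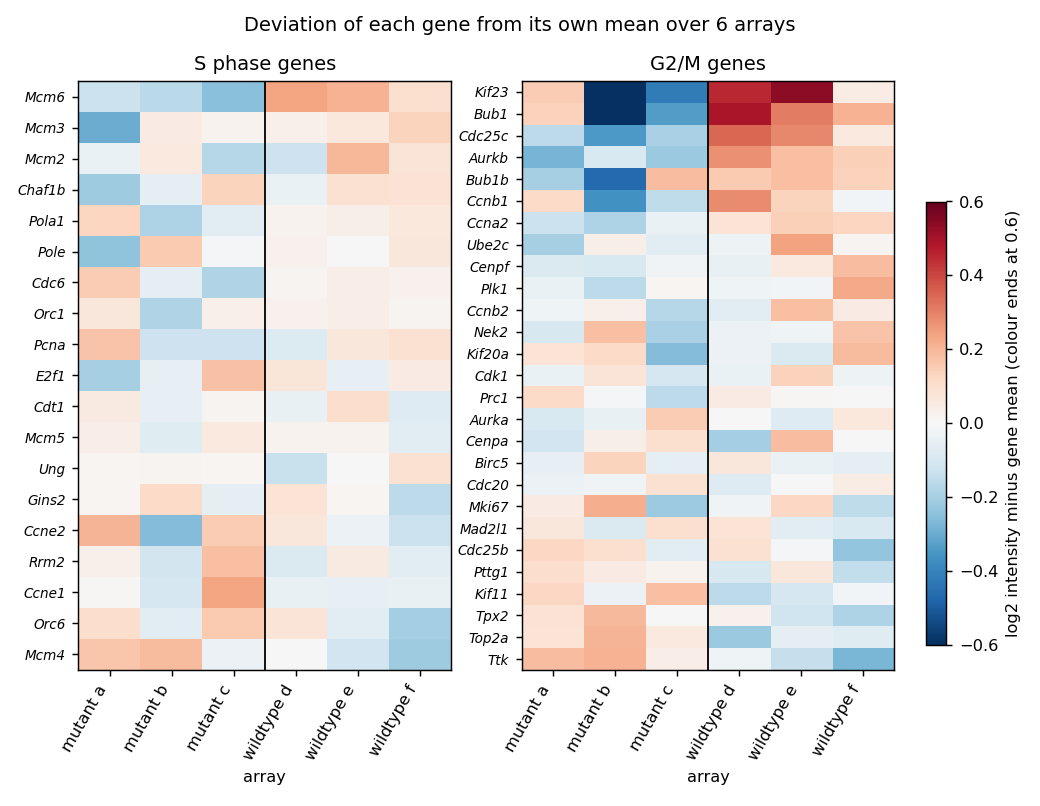
Deviation of each gene from its own mean over the 6 arrays (colour, log2 units, ending at 0.6 either way), with S phase genes on the left and G2/M genes on the right, mutants left of the black line and wildtypes right of it. Mutant b has the deepest blue cells, for Kif23, Bub1 and Bub1b, while the middle rows of both panels are pale on all arrays.

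Set side by side, the 2 classes had similar medians and different spreads. The median log2 fold change was -0.05 for S phase genes (9 positive and 10 negative, from -0.36 to 0.21) and -0.04 for G2/M genes (12 positive and 15 negative, from -0.69 to 0.29), beside 0.01 for all probes tested. When arrays were centred on their medians instead of quantile-normalised, all 3 medians were positive, at 0.03 for S phase genes (12 positive and 7 negative), 0.04 for G2/M genes (14 positive and 13 negative) and 0.03 for all probes. The sign of the class medians thus depended on the scaling of the arrays. The interquartile range of log2 fold changes was 0.12 in S phase genes, 0.24 in G2/M genes and 0.18 in all probes. At an unadjusted p under 0.05 1 S phase gene was higher and 1 lower (5.26% of the 19 each), and 2 G2/M genes were higher and 5 lower (7.41% and 18.5% of the 27), beside 6.43% higher and 5.81% lower among all probes. In the S phase class both shares were near the background, and in the G2/M class the share of lower genes was above it. With median centring 3 G2/M genes were higher and 4 lower, beside 8.48% of all probes in either direction. With cyclic loess 2 were higher and 5 lower, beside 12.1% of all probes. The mean log2 intensity over the 19 S phase genes was 10.73, 10.68 and 10.75 in mutants, against 10.74, 10.76 and 10.72 in wildtypes (10.72 ± 0.03 and 10.74 ± 0.02, SD, n = 3 each). Over the 27 G2/M genes it was 10.63, 10.57 and 10.57 in mutants, against 10.69, 10.71 and 10.65 in wildtypes (10.59 ± 0.04 and 10.68 ± 0.03, SD, n = 3 each). The S phase means overlapped between the groups while the G2/M means did not, a gap in means to which Kif23, Bub1, Cdc25c and Aurkb contributed most. The median deviation of the G2/M genes from their own means did overlap. It was -0.026, -0.010 and -0.057 in mutants a, b and c, against -0.021, 0.058 and 0.018 in wildtypes d, e and f. These values by array were taken on the quantile-normalised scale only. No p is given for these averages, since earlier results of these data were known when the genes were listed.

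**Figure D5:**
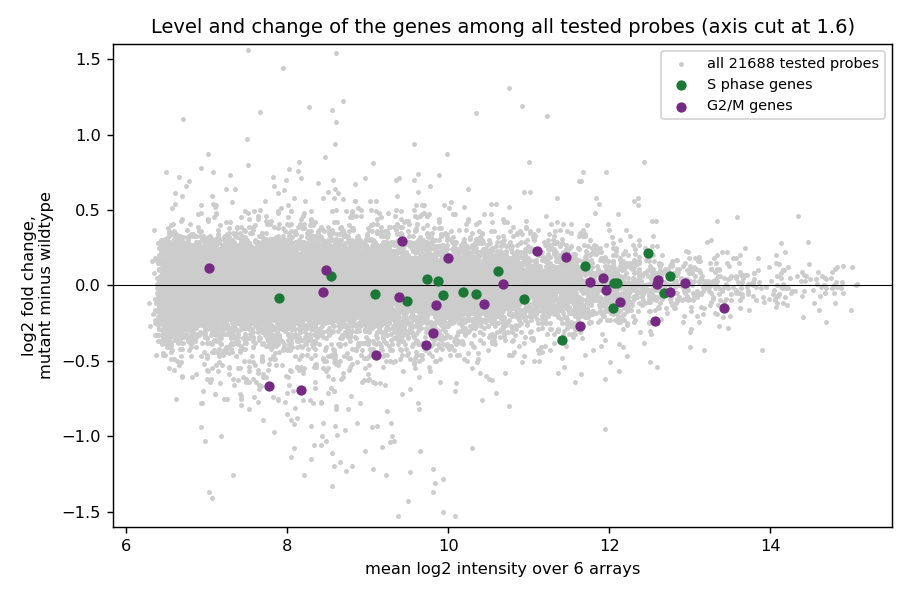
Log2 fold change (vertical axis, mutant minus wildtype, cut at 1.6 either way) against mean log2 intensity over the 6 arrays (horizontal axis) for all 21688 tested probes (grey), S phase genes (green) and G2/M genes (purple). The genes lie within the grey cloud, with Kif23 (-0.69) and Bub1 (-0.67) the lowest of them.

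Further genes of the same processes, from lists of known members, held no gene past the adjusted threshold either. The counts that follow are at an unadjusted p under 0.05, to be read beside 6.43% higher and 5.81% lower among all probes. Of 45 further replication genes 42 were tested, with 2 higher and 2 lower (4.76% each) and a median log2 fold change of -0.04. Among them were the primase subunit Prim2 (-0.35, SE 0.09, adjusted p = 0.239), Dbf4, the activator of the origin kinase Cdc7 (-0.25, SE 0.10), the clamp loader subunit Rfc1 (0.25, SE 0.09) and Rpa3, of the single-strand binding complex (0.22, SE 0.08, with wildtype f left out of its fit). Of 52 further mitosis genes 47 were tested, with 1 higher (2.13%) and 7 lower (14.9%) and a median of -0.01. Wee1, the kinase that restrains Cdk1, was at -0.30 (SE 0.08, adjusted p = 0.246), and Cdc25a, a phosphatase that opposes it, at -0.37 (SE 0.11). Incenp, the scaffold that holds Aurkb in the chromosomal passenger complex, had log2 intensities of 7.76, 7.57 and 7.62 in mutants, against 7.89, 7.86 and 7.98 in wildtypes (-0.26, SE 0.08, adjusted p = 0.288). Ect2, the cytokinesis factor recruited by the complex that holds Kif23, had 9.44, 8.80 and 9.35 in mutants, against 9.63, 9.67 and 9.66 in wildtypes (-0.46, SE 0.15, adjusted p = 0.311). In both genes every mutant was below every wildtype, and in Ect2, as in Kif23, mutant b was lowest. Racgap1, another cytokinesis gene of this list, lay on the other side of 0 (0.10, SE 0.09), with mutant b the highest of the 6 arrays. A low value on mutant b was not limited to cytokinesis genes. The origin recognition subunit Orc3 had 9.89, 9.28 and 9.92 in mutants a, b and c. Sox2, of the posterior embryo markers below, had 9.89, 9.08 and 9.83. How often mutant b was lowest over the whole array was not counted.

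Regulators upstream of these classes were measured as well. Of 18 G1 cyclins, kinases and inhibitors 13 were tested, with 1 higher and 1 lower at an unadjusted p under 0.05 (7.69% each). Cdkn1a, which encodes the inhibitor p21, had log2 intensities of 8.17, 8.07 and 8.42 in mutants, against 7.84, 7.98 and 7.87 in wildtypes. The groups did not overlap, and the difference was 0.32 on the log2 scale (SE 0.10, adjusted p = 0.291). Ccng1, cyclin G1, was at -0.39 (SE 0.16), its relative Ccng2 at -0.31 (SE 0.19) and Cdk2 at -0.17 (SE 0.11). Of 16 E2F, MuvB and FoxM1 factors 15 were tested, with 0 higher and 1 lower (6.67%), the repressor E2f6 (-0.25, SE 0.10). Its dimer partner Tfdp1 was at -0.20 (SE 0.12) and the MuvB subunit Lin37 at -0.13 (SE 0.10). Foxm1, an activator of G2/M genes, was at -0.42 (SE 0.32), a mean that rested on mutant a at 6.34, since mutants b and c had 7.69 and 7.74 and the wildtypes 7.68, 7.62 and 7.73. All 18 genes of the DNA damage and replication checkpoint were tested, with 2 higher (11.1%) and 3 lower (16.7%). The higher ones were Blm at 0.29 and Brca2 at 0.23, which act in repair by recombination. The checkpoint kinase Atr was at -0.31 (SE 0.08) near background, which it exceeded in 1 of 3 mutants and 3 of 3 wildtypes, and the clamp subunit Rad9a was at -0.37 (SE 0.11) from 2 mutant and 2 wildtype values. The remaining lower gene, Chek1, was at -0.25 (SE 0.09), above background in 3 of 3 mutants and 3 of 3 wildtypes, and its groups did not overlap.

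Markers of other cell types, and of the posterior embryo itself, were read from the same arrays. Of 10 markers of differentiating neurons 9 were tested, with 5 higher (55.6%) and 1 lower (11.1%) in mutants at an unadjusted p under 0.05, against 6.43% and 5.81% of all probes, and 1 past the adjusted threshold (Nhlh2, adjusted p = 0.0456, above background on 3 mutant and 0 wildtype arrays). Their mean log2 intensity was 7.60, 7.60 and 7.58 in mutants, against 7.32, 7.43 and 7.31 in wildtypes. Of 16 erythroid markers 15 were tested, 13 of them with a positive log2 fold change (86.7%, beside 52.4% of all probes, median 0.29). At an unadjusted p under 0.05, 4 were higher (26.7%) and 0 lower. The globins Hbb-bh1 (0.0001), Hba-x (0.001) and Hba-a1 (0.04) were close to 0, and the 2 negative markers were Tfrc (-0.46) and Tal1 (-0.18). Over the 14 erythroid markers measured on every array (Hbb-y had no usable spot in mutant a) the mean was 10.83, 10.73 and 10.68 in mutants, against 10.73, 10.62 and 10.36 in wildtypes. Mutant a was highest and wildtype f lowest, and mutants b and c overlapped with wildtype d. All 12 posterior embryo markers were tested, 10 with a negative log2 fold change (median -0.13) and 3 lower at an unadjusted p under 0.05 (25%). Among all probes 10322 of 21688 had a negative log2 fold change. Endothelial markers gave 1 higher and 1 lower of 6 tested (16.7% each), surface ectoderm and epithelium markers 0 and 2 of 6 (33.3% lower), and extraembryonic markers 0 and 0 of 6. The part of these cell types in the values of the replication and mitosis genes was not tested.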

How the data were processed

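Each array was deposited as a scanner table of intensity (spot mean and local background median) made with CodeLink Expression Analysis 4.1, per the file headers. Background was corrected with normexp (offset 50), control spots were removed, contaminated, irregular and masked spots were dropped, and the log2 intensities were quantile-normalised between arrays. Values given for single arrays are on this scale, and the offset makes differences of dim probes smaller than they are. Probes above background (scanner flag good or saturated) on at least 3 of 6 arrays, with at least 2 usable spots a group, were tested with limma 3.58.1 (R 4.3.3, lmFit and eBayes, two-sided, Benjamini-Hochberg over 21688 probes). The number of arrays limits the precision. Of 34967 gene probes, 22359 had 1 symbol, 204 several and 12404 none, from the platform annotation and RefSeq names. The brightest tested probe stands for a gene. Described with every array are genes with an unadjusted p under 0.05 (at most 10 a class) and the 2 brightest a class. Of each further list of replication, mitosis and cell cycle genes the 4 of smallest p are named. Racgap1, Chek1 and Orc3 were added after their values were seen. Genes of these lists given array by array, like other genes so given, were also chosen after their values were seen. The members and all lists were chosen with earlier results of these data known. Promoter sequences are RefSeq's (GRCm38.p6), and that build is not known to be the one behind the array. The deposited series table, of background-subtracted intensity divided by 1 factor an array, served as an alternative.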

Additional observations from a re-analysis of the deposited data

How the results depend on the processing

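No gene of the 46 passed an adjusted p of 0.05 under any of 19 alternatives (1 of them a threshold of 0.1; lowest adjusted p 0.107, without mutant a), and the count at an unadjusted p under 0.05 stayed between 7 and 11. Mcm6, Cdc25c, Aurkb, Bub1, Ttk and Kif23 kept direction and an unadjusted p under 0.05 in all 18 settings that gave them a value, Ccna2 and Top2a in 16 and Mcm4 in 8. With 1 array left out, 8 to 17 genes had groups that did not overlap (27.3% to 32.4% of all probes, since fewer arrays separate more easily), the S phase median was -0.033 to -0.0006 and the G2/M median -0.076 to -0.019. Median centring gave 0.034 for S phase and 0.038 for G2/M genes, and the deposited series table -0.005 and -0.0006. Sign changes occurred in genes near 0: Pcna at 0.034 with median centring, Birc5 at -0.018 with cyclic loess and from -0.046 to 0.056 with an array left out, and Rrm2 from -0.0079 to 0.13. The cause of these shifts was not tested. Bub1 was -0.39 as the mean of its probes and -0.43 without mutant b, but -0.90 without mutant a and -0.96 with background subtracted (floor of 1). Kif23 was -0.47 without mutant b, but -0.93 without mutant a and -0.89 with background subtracted. Slide as a block was not run, since each slide held 1 array, and scan times were not used. No paired analysis was possible because the replicate letters differ between the groups.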

Other observations

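A pair of probes that name near relatives of unmeasured S phase genes were not counted among the members. The probe annotated as a thymidylate synthase pseudogene had log2 intensities of 12.21, 11.68 and 12.12 in mutants, against 12.25, 12.13 and 12.32 in wildtypes (log2 fold change -0.23, SE 0.14, limma adjusted p = 0.523). The probe annotated as similar to a stem-loop binding protein had 10.85, 11.07 and 10.76 in mutants, against 10.87, 10.80 and 10.85 in wildtypes (0.05, SE 0.09, adjusted p = 0.844). Whether these probes bind the transcripts of Tyms and Slbp was not tested.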
